A study of Mus musculus with 18 samples.

Results

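The enzymes of phospholipid and lysophospholipid metabolism were followed through sleep loss and recovery in mouse cortex and through excitatory stimulation of cortical cultures. They were chosen by gene symbol: every gene whose single array symbol belongs to the phospholipase A2, C or D families, the lysophospholipid and lysophosphatidate acyltransferases, the diacylglycerol kinases, the phosphatidate phosphatases, the choline and ethanolamine head group pathways, the lysophospholipid and phosphodiester hydrolases, or the glycerol 3-phosphate dehydrogenases. The rule found 67 of the 14807 genes with a single symbol on the array, and each of the 67 had 1 probe set. They comprised 16 phospholipases A2, 11 phospholipases C, 5 phospholipases D, 11 acyltransferases, 9 head group enzymes, 5 diacylglycerol kinases, 5 hydrolases of lysophospholipids and phosphodiesters, 3 phosphatidate phosphatases and 2 glycerol 3-phosphate dehydrogenases. Another 5 probe sets carried several symbols of which at least 1 fitted the rule, and they were left out because their gene is not settled.

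The study measured RNA on 18 Affymetrix arrays, 3 for each of 6 groups, from C57BL/6J mice, and asked whether cortical cells in a dish respond to stimulation as the cortex responds to wakefulness. The 3 cortex groups came from 27 male mice, 9 to a group, and each array held RNA combined from 3 mice of the group. Recovered mice had been kept awake for 6 h and were then left to sleep, for 18 h by the source label and 24 h by the treatment protocol; sleep-deprived mice were sampled directly after 6 h of enforced waking; control mice stayed undisturbed in their home cages. The culture groups were primary cells dissociated from the cortex of newborn pups or embryos, and were sampled 24 h after an excitatory neurotransmitter cocktail, 3 h after the same cocktail, or 3 h after sham stimulation with water, with 3 dishes each drawn from 3 different cultures. Ages of the cortex mice and days in culture were not given in the sources used here.

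Membrane phospholipids carry 2 fatty acids and a head group on a glycerol 3-phosphate backbone. Acyltransferases build phosphatidate on that backbone, and the choline and ethanolamine kinases, cytidyltransferases and transferases of the CDP-choline and CDP-ethanolamine pathways attach the head groups. Phospholipases A2 release a fatty acid such as arachidonate and leave a lysophospholipid, which lysophospholipid acyltransferases can rebuild. Phospholipases C split phosphatidylinositol bisphosphate into diacylglycerol and inositol trisphosphate downstream of neurotransmitter receptors, diacylglycerol kinases turn the diacylglycerol into phosphatidate, and phospholipases D make phosphatidate and a free head group.

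All values below are log2 signals as deposited unless stated, so a difference of 1 is a doubling. The level of a probe set can be set against the same probe set on another array of the same system, but not against another gene. Cortex and culture arrays were not summarised together, so levels can be compared across the systems only with care. Over all 23238 probe sets, the array medians lay between 6.87 and 7.09. The standard deviations of the arrays were 2.29 to 2.31 in cortex and 2.77 to 2.8 in culture, so values spread wider on culture arrays. Of the 67 members, 41 were above the median on all 18 arrays, 12 were below it on all 18 and 14 were mixed. Arrays of 1 group correlated at 0.979 to 0.993 over all probe sets. Of the cell type markers, those of neurons averaged 11.85 to 11.95 in control cortex and 12.12 to 12.23 in sham cultures. In the sham cultures those of oligodendrocytes averaged 5.54 to 5.91, of microglia 5.36 to 5.53 and of endothelial cells 4.81 to 4.88, so the last 3 types had low marker signal there. Both systems are mixtures, and a lower value from fewer cells of a type cannot be told apart from less RNA per cell. Changes were tested with limma within each system, and a gene was called at an adjusted p under 0.05 over all 14807 genes. The p-values measure the spread between pools of mice or between dishes.

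The promoters of the 3 genes on which most of the results turn are shown so that their base composition can be compared: Pla2g4e, called in cortex, and Plcd1 and Chka, called in stimulated cultures. Each is the RefSeq window from 250 bases before to 50 bases after the annotated start, read 5′ to 3′ on the gene's strand in build GRCm38.p6. Pla2g4e lies at chr2:120245286-120245585 on the minus strand, Plcd1 at chr9:119093453-119093752 on the minus strand and Chka at chr19:3851523-3851822 on the plus strand. Capitals mark matches to the letters searched.
Pla2g4e: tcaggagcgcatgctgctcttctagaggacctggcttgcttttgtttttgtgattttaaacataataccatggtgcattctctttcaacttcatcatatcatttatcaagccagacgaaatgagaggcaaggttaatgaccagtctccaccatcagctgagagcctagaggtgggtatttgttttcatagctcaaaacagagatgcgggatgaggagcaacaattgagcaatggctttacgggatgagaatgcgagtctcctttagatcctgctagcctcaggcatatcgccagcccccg
Plcd1: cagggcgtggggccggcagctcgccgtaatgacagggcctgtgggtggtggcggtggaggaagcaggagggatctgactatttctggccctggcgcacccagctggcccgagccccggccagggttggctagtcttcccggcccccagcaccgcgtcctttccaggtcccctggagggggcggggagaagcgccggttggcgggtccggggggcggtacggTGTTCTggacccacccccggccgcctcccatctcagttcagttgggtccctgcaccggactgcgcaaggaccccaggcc
Chka: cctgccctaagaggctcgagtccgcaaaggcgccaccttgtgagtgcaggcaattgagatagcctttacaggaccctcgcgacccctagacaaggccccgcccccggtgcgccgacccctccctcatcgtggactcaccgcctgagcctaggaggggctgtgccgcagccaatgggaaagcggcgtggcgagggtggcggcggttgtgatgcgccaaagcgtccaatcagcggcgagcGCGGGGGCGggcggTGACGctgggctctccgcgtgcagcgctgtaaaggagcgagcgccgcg
The Pla2g4e window had a GC content of 46.0% and 7 CpG, equal to the median of 7 CpG over all 32851 windows in the table. Plcd1 had 71.3% GC and 22 CpG, and Chka 68.7% GC and 33 CpG, more CpG than 76.9% and 91.4% of all windows had. On both strands, 10 sets of letters were searched. Chka held GCGNGGGCG, the core bound by EGR proteins, as GCGGGGGCG, which 5.55% of all windows hold, and TGACG, the core bound by CREB, which 20.8% hold. Plcd1, which has 2 listed starts of which the one shown is the first in the table, held TGTTCT, the core bound by the glucocorticoid receptor, which 19.0% hold. None of the 3 windows held the full CREB site TGACGTCA (1.79% of all windows), the AP-1 site TGANTCA (7.81%), the clock E-box CACGTG (7.15%), the D-box TTATGTAA (0.938%), the site AAAGGTCA of NR4A receptors (1.51%), or the MEF2 and serum response factor sites (0.164% and 0.0639%). A match describes these letters in this window and is not evidence of binding.

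Sleep deprivation against undisturbed control asked which of these enzymes shift in mRNA with enforced waking. It changed 3 members: Pla2g4e fell, and Plcd4 and Gpd1 rose. Pla2g4e encodes the epsilon form of cytosolic phospholipase A2, which transfers fatty acids to phosphatidylethanolamine to make the precursors of N-acylethanolamines. It had 6.71, 6.84 and 6.94 in sleep-deprived pools, against 7.47, 7.66 and 7.61 in control pools. All 3 sleep-deprived pools lay below all 3 control pools, and the gap between them was wider than the range of either group. The difference was -0.75 ± 0.08 (SE; 95% interval -0.94 to -0.57), or 1.69-fold lower, with an adjusted p of 0.0062 in limma. Among all genes it was the 9th lowest difference.

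Plcd4, a delta form of phosphatidylinositol-specific phospholipase C, had 8.25, 8.25 and 8.24 in sleep-deprived pools, against 7.93, 8.0 and 8.04 in control pools. The sleep-deprived pools were nearly identical and all above the controls, with a difference of 0.26 ± 0.04 and an adjusted p of 0.032 in limma. Gpd1, the cytosolic glycerol 3-phosphate dehydrogenase that makes the backbone from a glycolytic intermediate, had 9.77, 9.83 and 9.83 in sleep-deprived pools, against 9.61, 9.57 and 9.50 in control pools. These groups did not overlap either, and the difference was 0.25 ± 0.04 with an adjusted p of 0.035. Both changes were small, 1.19-fold higher each. Lpcat4, an acyltransferase that rebuilds phospholipids from their lyso forms, had 10.66, 10.78 and 10.73 in sleep-deprived pools, against 10.93, 10.98 and 10.89 in control pools, and at -0.21 ± 0.04 its adjusted p was 0.057.

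**Figure D1:**
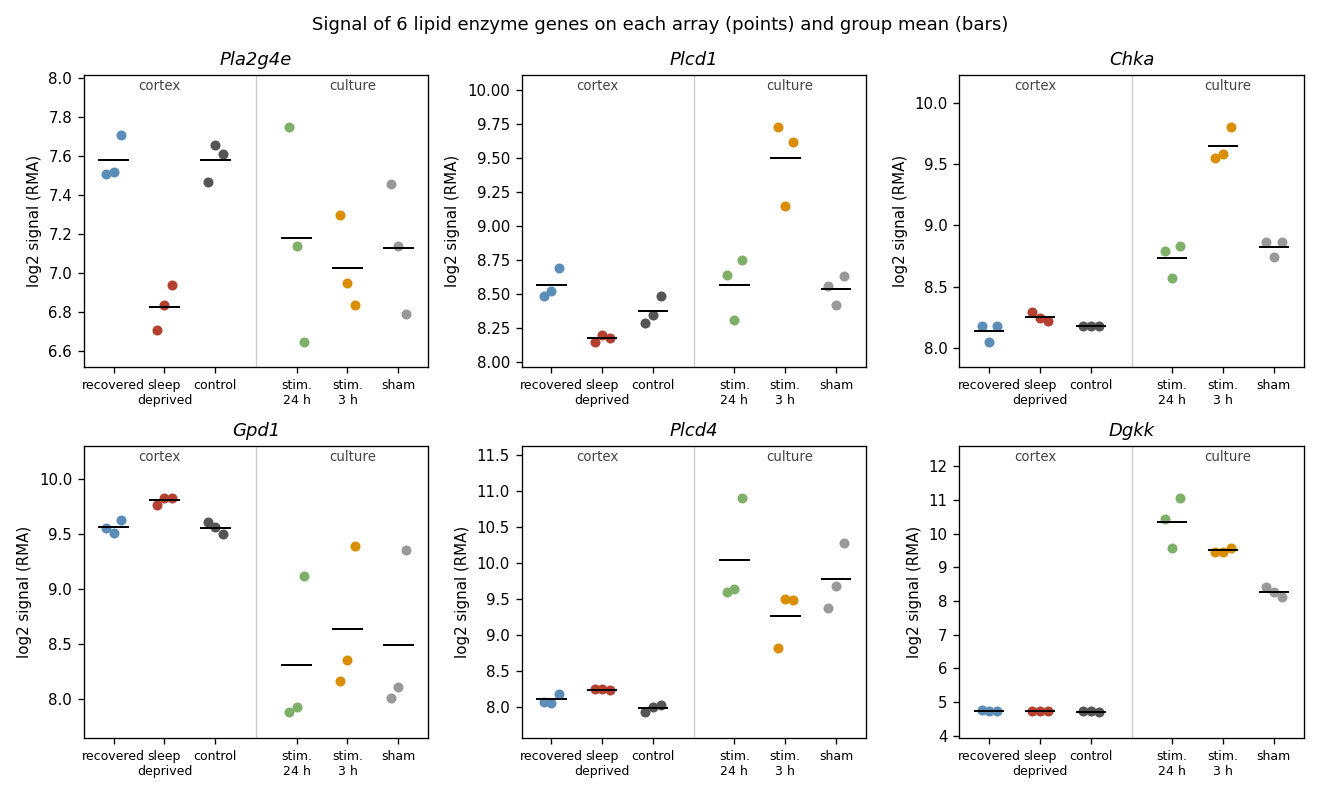
Log2 signal (vertical axis) of Pla2g4e, Plcd1, Chka, Gpd1, Plcd4 and Dgkk on each of the 18 arrays; each point is 1 array and each bar the mean of its 3 arrays, and the vertical axes do not start at 0. Among cortex pools Pla2g4e is lowest in the sleep-deprived ones, at 6.71 to 6.94. Among culture dishes Chka reaches 9.55 to 9.80 and Plcd1 9.15 to 9.73 only 3 h after stimulation. Cortex and culture values were not summarised together.

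The 3 calls were 4.48% of the members, against 1.63% of all 14807 genes. By direction, 2 members were called higher, against 0.723% of all genes, and 1 was called lower, against 0.905%. Among the 16 phospholipases A2 only Pla2g4e passed. Pla2g4a, the cytosolic form that releases arachidonate, had 5.99, 5.84 and 5.90 in sleep-deprived pools and 6.14, 6.05 and 6.01 in control pools, and did not pass. Of the 11 phospholipases C, 1 passed, and of the 2 glycerol 3-phosphate dehydrogenases, 1. No call was made among the 11 acyltransferases, 9 head group enzymes, 5 diacylglycerol kinases, 5 phospholipases D, 5 hydrolases and 3 phosphatidate phosphatases, of which 3 acyltransferases and 2 hydrolases had an unadjusted p under 0.05. Over all 67 members, 13 had an unadjusted p under 0.05 in limma, 19.4%, against 13.4% of all genes. The median difference was -0.016 over the members and -0.0027 over all genes. The pools of both groups did not overlap for 19 members, 28.4%, against 18.8% of all genes.

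Enpp6 and Gpcpd1, which break down choline phosphodiesters, were both at -0.30 without passing (adjusted p of 0.28 and 0.11). Enpp6 had 6.94, 6.59 and 6.83 in sleep-deprived pools, against 7.04, 7.14 and 7.09 in control pools. Enpp6 is known as a gene of newly forming oligodendrocytes, and the 8 measured oligodendrocyte markers averaged 9.39 to 9.44 in sleep-deprived pools and 9.54 to 9.57 in control pools, with 2 of the 8, Opalin and Aspa, called lower. The part of that shift in the values of Enpp6 was not tested. Markers of neurons (11.90 to 11.94 in sleep-deprived pools, 11.85 to 11.95 in control pools) and astrocytes (9.12 to 9.15, against 9.04 to 9.11) had no called member, while 1 of 8 microglial markers (Trem2) and 1 of 5 immature neuron markers (Dcx) were called lower; their part was not tested. The call on Pla2g4e held without any 1 of the 6 pools (adjusted p of 0.014 to 0.037) but was lost when all 18 arrays shared 1 estimate of spread (0.34). The call on Plcd4 was lost without any 1 pool other than control pool 3 (adjusted p of 0.048 to 0.12 over 6 refits), and that on Gpd1 without any 1 of the 6 (0.065 to 0.13); both were lost when only the 6 arrays compared were fitted.

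Recovered against sleep-deprived cortex asked whether these levels return after a time in which the mice could sleep. Sleep and the hours that passed before sampling cannot be told apart in this comparison. The time of day at which each group was sampled is not given here. The comparison shares the sleep-deprived pools with the last one, so opposite signs in both are not independent. In it 5 members were called, of which 4 were higher and 1 lower after recovery. Pla2g4e had 7.51, 7.52 and 7.71 in recovered pools, against 6.71, 6.84 and 6.94 in sleep-deprived pools. The recovered pools were all higher, by 0.75 ± 0.08 with an adjusted p of 0.0055 in limma. Plcd1, a delta phospholipase C, had 8.49, 8.52 and 8.69 in recovered pools, against 8.15, 8.20 and 8.18 in sleep-deprived pools, a rise of 0.39 ± 0.07 with an adjusted p of 0.031. Its control pools, at 8.29, 8.35 and 8.49, lay between both groups. A further delta form, Plcd3, had 7.76, 7.74 and 7.89 in recovered pools, against 7.54, 7.59 and 7.56 in sleep-deprived pools, a rise of 0.23 ± 0.04 (adjusted p of 0.041).

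Lpcat4 had 10.97, 10.91 and 10.96 in recovered pools, against 10.66, 10.78 and 10.73 in sleep-deprived pools, a rise of 0.22 ± 0.04 with an adjusted p of 0.041 in limma. Gpd1 had 9.56, 9.51 and 9.63 in recovered pools, against 9.77, 9.83 and 9.83 in sleep-deprived pools, and fell by 0.24 on the log2 scale (SE 0.04, adjusted p of 0.034). In each of the 5 the recovered and sleep-deprived pools did not overlap. The 5 calls were 7.46% of members, against 2.26% of all genes; the 4 higher were 5.97%, against 1.47% of all genes, and the 1 lower was 1.49%, against 0.79%. Pools did not overlap for 22 members, 32.8%, against 22.3% of all genes.

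By role, the calls comprised 1 of 16 phospholipases A2, 2 of 11 phospholipases C, 1 of 11 acyltransferases and 1 of 2 glycerol 3-phosphate dehydrogenases. Plcd4, called higher after sleep deprivation, had 8.08, 8.06 and 8.19 in recovered pools and was -0.14 ± 0.04 below the sleep-deprived pools (adjusted p of 0.17). Oligodendrocyte markers averaged 9.51 to 9.65 in recovered pools, against 9.39 to 9.44 in sleep-deprived pools, and their part in these values was not tested. Only the call on Pla2g4e held without any 1 of the 6 pools (adjusted p of 0.017 to 0.029). Without 1 pool, those on Plcd1 (0.062 to 0.11) and Lpcat4 (0.052 to 0.13) were lost in each of 6 refits, and those on Plcd3 (0.039 to 0.13) and Gpd1 (0.041 to 0.12) were kept only without recovered pool 3.

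Recovered against control cortex asked what was left after recovery. No member was called, as no gene was: 0% of the 14807 genes had an adjusted p under 0.05 in limma. An unadjusted p under 0.05 was found for 427 genes (2.88%) and 4 members (5.97%). For Pla2g4e the recovered pools averaged 7.58 ± 0.11 and the control pools 7.58 ± 0.10 (SD, n = 3 each), with a 95% interval of the difference of -0.19 to 0.19. The 4 members with the smallest p were Pld5 at 0.16 ± 0.04, Plcd1 at 0.19 ± 0.07, Plcd4 at 0.12 ± 0.04 and Plcd3 at 0.11 ± 0.04, each with an adjusted p of 1. Pld5, a phospholipase D relative without known lipase activity, had 7.06, 7.06 and 7.0 in recovered pools, against 6.87, 6.92 and 6.86 in control pools. Its groups did not overlap, which held for 4 members, 5.97%, against 5.32% of all genes.

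Stimulated against sham cultures at 3 h asked what an excitatory stimulus does to the same enzymes in a dish. Here 2 members were called, both higher: Chka and Plcd1. Chka encodes choline kinase alpha, which phosphorylates choline in the opening step of phosphatidylcholine synthesis. It had 9.55, 9.58 and 9.80 in dishes 3 h after stimulation, against 8.86, 8.74 and 8.86 in sham dishes. Every stimulated dish was above every sham dish, by a mean of 0.82 ± 0.10 (95% interval 0.60 to 1.05), or 1.77-fold, with an adjusted p of 0.014 in limma. Plcd1 had 9.73, 9.15 and 9.62 in dishes 3 h after stimulation, against 8.56, 8.42 and 8.63 in sham dishes. These dishes did not overlap either, and the rise was 0.96 ± 0.17 (0.58 to 1.35), or 1.95-fold, with an adjusted p of 0.041. Over dishes of the same number, Plcd1 and Chka rose in 3 of 3 pairs, which follows from the lack of overlap and adds nothing to it.

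The 2 calls were 2.99% of members, against 1.45% of all genes in either direction and 0.898% called higher. With the dish number as a block, 2 members were again called, 2.99% against 2.42% of all genes in either direction. None of the 16 phospholipases A2, 11 acyltransferases, 5 phospholipases D, 5 diacylglycerol kinases, 5 hydrolases, 3 phosphatidate phosphatases or 2 glycerol 3-phosphate dehydrogenases passed; 2 acyltransferases, 1 diacylglycerol kinase and 1 phospholipase D among them had an unadjusted p under 0.05, and none of the phospholipases A2. Over all 67 members, 6 had an unadjusted p under 0.05 in limma, 8.96%, against 12.7% of all genes. The median difference was -0.04 over the members and -0.03 over all genes. Dishes did not overlap for 11 members, 16.4%, against 21.4% of all genes.

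Dgkk, the kappa diacylglycerol kinase, had 9.46, 9.46 and 9.58 in dishes 3 h after stimulation, against 8.41, 8.26 and 8.13 in sham dishes. The dishes were well apart, but at 1.23 ± 0.31 the adjusted p was 0.11, from a fit in which the 3 culture groups share 1 estimate of spread. Fitted on these 6 arrays alone, Dgkk had an adjusted p of 0.0097 and Plcd1 lost its call at 0.057, while Chka kept it at 0.022. Dgkk was also called with scaled arrays (0.024), with array weights (0.0055) and with all 18 arrays in 1 model (0.0041), and not with the dish number as a block (0.088). Pld1, which makes phosphatidate from phosphatidylcholine, had 7.08, 7.29 and 6.72 in dishes 3 h after stimulation, against 7.45, 7.66 and 7.40 in sham dishes. Its difference of -0.47 ± 0.16 did not pass (adjusted p of 0.23). Without 1 of the 6 dishes, the call on Chka was kept only without 3 h dish 1 or 2 (adjusted p of 0.047 to 0.066 over 6 refits) and that on Plcd1 only without 3 h dish 2 (0.033 to 0.16). Astrocyte markers averaged 9.21 to 9.75 in dishes 3 h after stimulation and 9.34 to 10.11 in sham dishes with none of 5 called. By dish number they were lower at 3 h in each of the 3, at 9.21, 9.28 and 9.75 against 9.40, 9.34 and 10.11. Pdgfrb of 6 pericyte and fibroblast markers was called lower. Neuron markers averaged 12.33 to 12.46 in dishes 3 h after stimulation and 12.12 to 12.23 in sham dishes, without overlap. Only Nefl of the 8 was called higher, and the median change of the 8 was 0.055. The part of these markers in the values of Chka, Plcd1 and Dgkk was not tested.

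**Figure D2:**
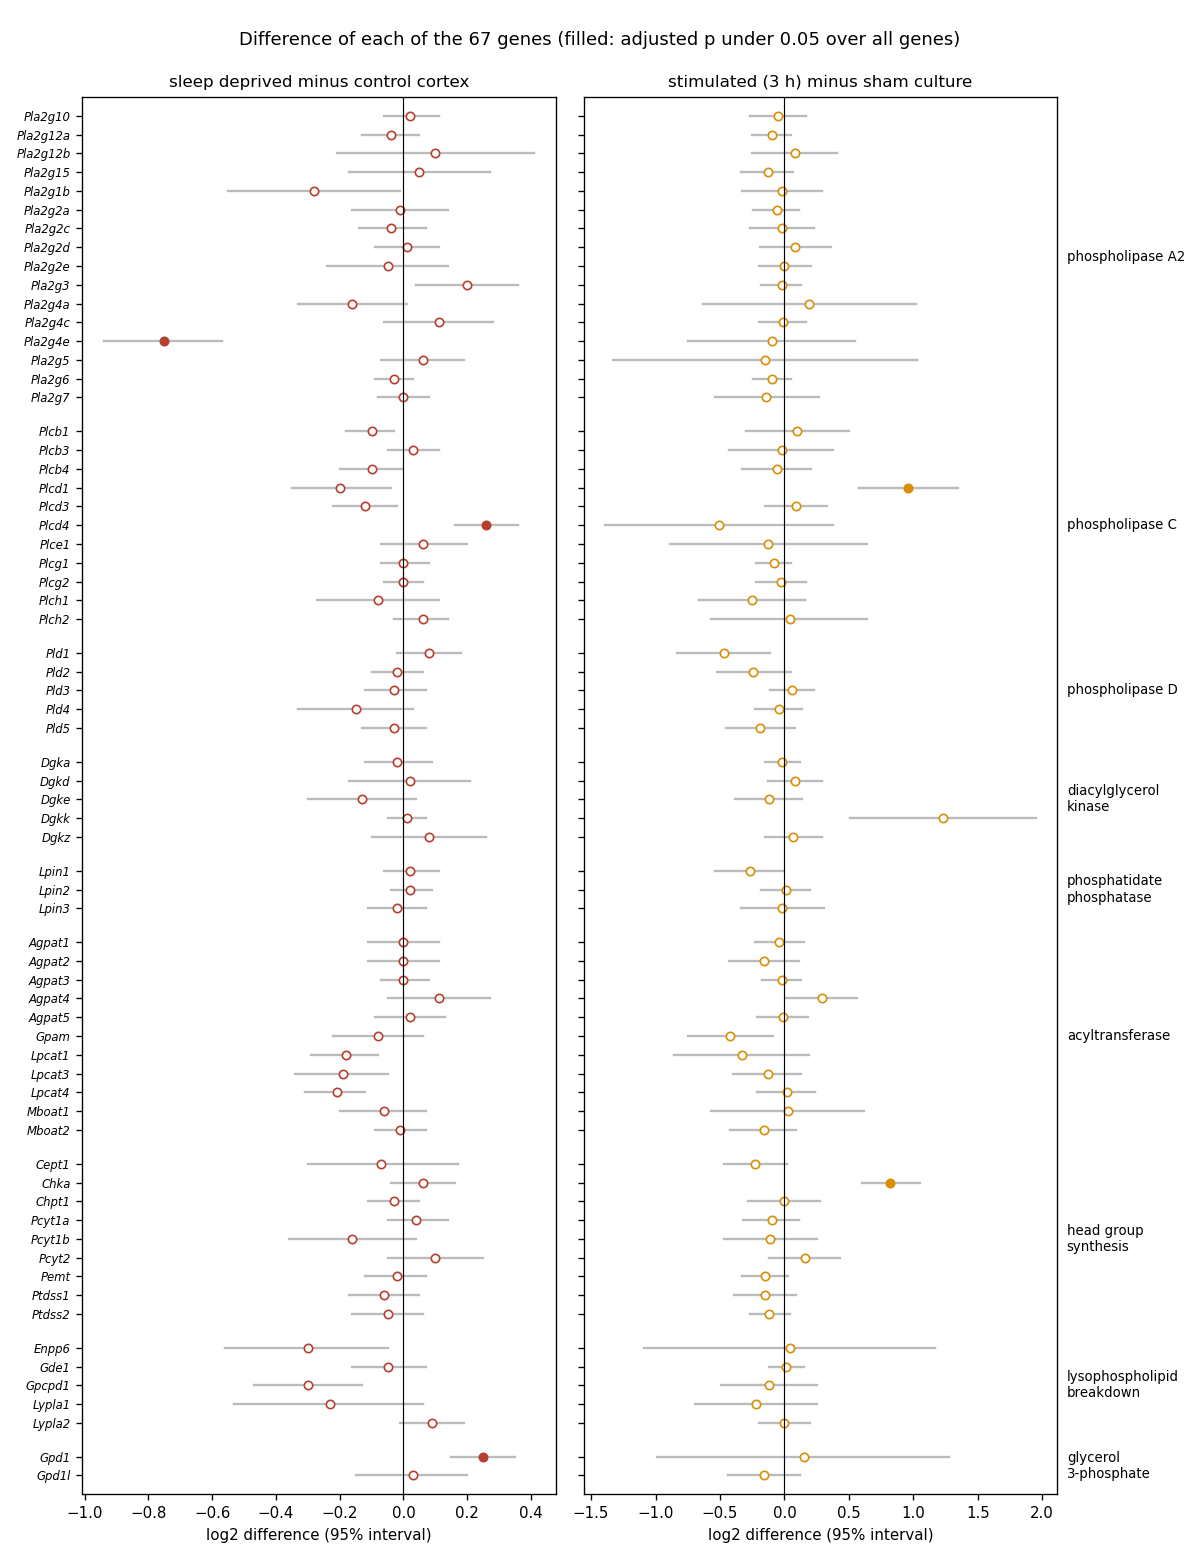
Log2 difference (horizontal axis) of each of the 67 members, sleep-deprived minus control cortex and stimulated 3 h minus sham culture; points are limma estimates, lines their 95% intervals, and filled points have an adjusted p under 0.05. Pla2g4e at -0.75 stands out in cortex, and Plcd1 at 0.96 and Chka at 0.82 in culture, where Dgkk at 1.23 has a wide interval.

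Cultures 24 h against 3 h after stimulation asked whether the response had ended. This comparison shares the 3 h dishes with stimulated against sham cultures, so opposite signs in both are not independent. No sham dishes were sampled at 24 h. Chka had 8.79, 8.57 and 8.83 in dishes at 24 h, against 9.55, 9.58 and 9.80 at 3 h. Every dish at 24 h was lower, and Chka fell by 0.91 on the log2 scale (SE 0.10, adjusted p of 0.02 in limma). Plcd1 had 8.64, 8.31 and 8.75 in dishes at 24 h, against 9.73, 9.15 and 9.62 at 3 h, again without overlap, at -0.93 ± 0.17 with an adjusted p of 0.077. Dishes of 1 number deviated together over all genes, so the number was taken to mark a shared culture; with the number as a block the adjusted p of Plcd1 was 0.018 and that of Chka 0.012. Without the block 1 member was called, lower, against 0.331% of all genes (0.25% lower), and with it 2, against 1.01% (0.756% lower).

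Gpam, the mitochondrial acyltransferase that starts phosphatidate synthesis, had 9.95, 9.76 and 10.24 in dishes at 24 h, against 9.34, 9.51 and 9.10 at 3 h, and its sham dishes were at 9.82, 9.75 and 9.64. The dishes at 3 h were the lowest of the 3 groups, but the difference of 0.67 ± 0.14 did not pass (adjusted p of 0.12). Pld1 had 7.53, 7.37 and 7.75 in dishes at 24 h, against 7.08, 7.29 and 6.72 at 3 h, at 0.52 ± 0.16 (adjusted p of 0.24). Dishes did not overlap for 14 members, 20.9%, against 15.3% of all genes. The call on Chka was kept only without 24 h dish 2 or 3 among the 6 refits without 1 dish (adjusted p of 0.016 to 0.099). Neuron markers averaged 12.19 to 12.25 in dishes at 24 h, against 12.33 to 12.46 at 3 h, without overlap and with none of 8 called. Astrocyte markers averaged 9.47 to 10.82 at 24 h and 9.21 to 9.75 at 3 h, higher at 24 h in each of the 3 dish numbers with none of 5 called, and Pdgfrb was called higher; their part was not tested.

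Cultures 24 h after stimulation against sham had no called member and no called gene, 0% of 14807 in limma. An unadjusted p under 0.05 was found for 5 members (7.46%) and 877 genes (5.92%). With array weights 5 members and 958 genes were called, and with all 18 arrays in 1 model 1 member, Dgkk, and 64 genes. The sham dishes were sampled only at 3 h, so stimulation and the later sampling time cannot be told apart in this comparison. Dgkk had the largest positive difference of all 14807 genes here. It had 10.43, 9.56 and 11.06 in dishes at 24 h, against 8.41, 8.26 and 8.13 in sham dishes. Every dish at 24 h was above every sham dish, but these dishes spanned 9.56 to 11.06, and at 2.08 ± 0.31 (95% interval 1.36 to 2.81) the adjusted p was 0.37. Without dish 2 at 24 h the difference was 2.48 and the adjusted p 0.036. In cortex Dgkk read 4.69 to 4.75 on all 9 arrays, below every array median, and 7 of them shared 1 value.

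The other 3 members with the smallest p were lower at 24 h: Dgke, which prefers diacylglycerol carrying arachidonate, at -0.32 ± 0.11, the secreted Pla2g3 at -0.18 ± 0.07 and the calcium-independent Pla2g6 at -0.15 ± 0.06, with adjusted p of 0.81, 0.81 and 0.82. Dishes did not overlap for 9 members, 13.4%, against 8.39% of all genes. Chka at -0.09 ± 0.10 and Plcd1 at 0.03 ± 0.17 were near the sham level, with 95% intervals of -0.32 to 0.14 and -0.35 to 0.42. Astrocyte markers averaged 9.47 to 10.82 in dishes at 24 h, against 9.34 to 10.11 in sham dishes, and were higher at 24 h in each of the 3 dish numbers. Their part in these values was not tested.

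The culture response and the sleep deprivation response were set against each other in 1 model of all 18 arrays, as the difference between stimulated minus sham and sleep-deprived minus control. It was called for 2 members, both higher in culture, 2.99% of members against 2.07% of all genes (1.12% higher). For Chka the 3 h change in culture of 0.82 exceeded the 0.06 ± 0.04 in cortex by 0.76 ± 0.11, with an adjusted p of 0.0029 in limma. In cortex, Chka had 8.29, 8.24 and 8.22 in sleep-deprived pools, against 8.18 in all 3 control pools. The 95% interval of the change there was -0.04 to 0.16. Of the 9 cortex arrays 4 shared 1 value of Chka, so this interval rests in part on tied values. For Plcd1 the change in culture of 0.96 and the -0.20 ± 0.07 in cortex (adjusted p of 0.24) differed by 1.16 ± 0.19, with an adjusted p of 0.0062. The 3 sleep-deprived pools of Plcd1 were all below the control pools, while the 3 stimulated dishes were all above the sham dishes.

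Pla2g4e did not pass in culture, where it had 7.30, 6.95 and 6.84 in dishes 3 h after stimulation, against 7.46, 7.14 and 6.79 in sham dishes. These dishes overlapped, with a difference of -0.10 (95% interval -0.75 to 0.55). Over dishes of the same number the differences were -0.16, -0.20 and 0.05, and with the number as a block the 95% interval was -0.39 to 0.19, which does not reach the -0.75 seen in cortex. The difference between its responses was 0.65 ± 0.31 with an adjusted p of 0.43 in limma. With the replicate number as a block it was called, at 0.65 ± 0.14 with an adjusted p of 0.031. That block was set in both systems, although the numbers did not pair the cortex pools, so this call is uncertain. Dgkk at 1.22 ± 0.33 (adjusted p of 0.081) and Pld1 at -0.55 ± 0.17 (0.13, and 0.036 without 3 h dish 2) did not pass. The calls on Chka and Plcd1 held without any 1 of the 12 arrays involved (adjusted p of 0.0037 to 0.011 for Chka and 0.00063 to 0.021 for Plcd1). This model gave both systems 1 estimate of spread per gene, although dishes varied more than pools. Plcd1 had group SDs of 0.10 to 0.31 in culture and 0.03 to 0.11 in cortex. The 3 h culture calls that enter these differences held in only 2 of 6 refits without 1 dish for Chka, and 1 of 6 for Plcd1.

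**Figure D3:**
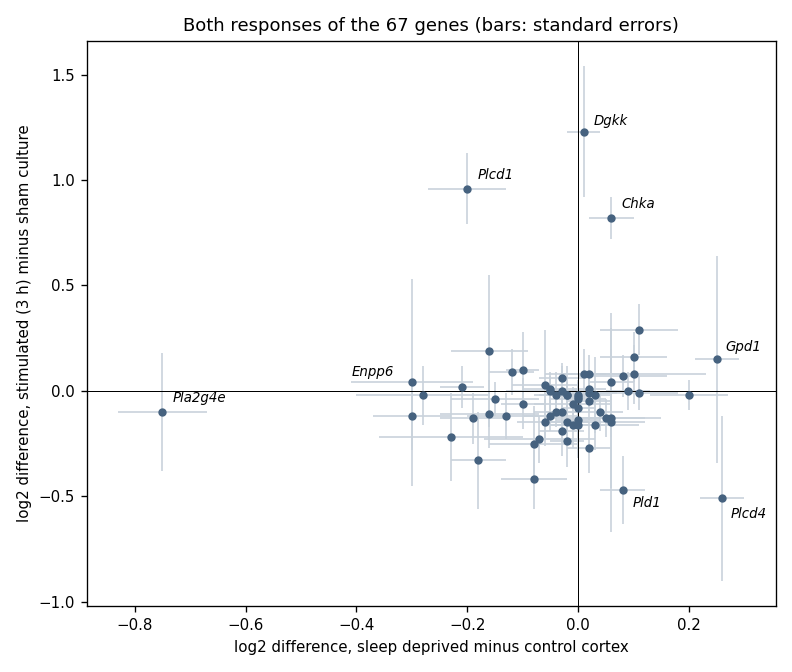
Log2 difference of stimulated 3 h minus sham culture (vertical axis) against sleep-deprived minus control cortex (horizontal axis) for the 67 members, 1 point each, with bars of 1 standard error. Chka and Plcd1 lie high on the culture axis at 0.82 and 0.96 with cortex values of 0.06 and -0.20, and Pla2g4e lies far left at -0.75 with a culture value of -0.10.

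Dish numbers set many members further apart than treatments did, about as often as for other genes. The means of the 3 dish numbers spanned more than the means of the 3 groups in 38 members, 56.7%, against 53.8% of all genes. The order of the numbers was the same in all 3 groups for 7 members, 10.4%, against 9.73% of all genes: Agpat3, Gpd1, Gpd1l, Lpcat1, Pla2g4e, Plcb3 and Plce1. Gpd1 averaged 8.02, 8.13 and 9.29 over dishes numbered 1, 2 and 3, and Pla2g4e 7.5, 7.08 and 6.76. Dishes numbered 3 thus had the highest Gpd1 and the lowest Pla2g4e whatever the treatment. Enpp6 was lowest there too, at a mean of 5.22, against 6.42 and 6.34 in numbers 1 and 2. Markers of oligodendrocyte precursors were lowest in dishes numbered 3 as well, at 9.62 at 24 h, 9.1 at 3 h and 9.15 in sham dishes, against 9.73 and 9.98, 9.78 and 9.95, and 9.74 and 9.9 in numbers 1 and 2 of the same groups.

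Astrocyte markers were also highest in dishes numbered 3, at 10.82 at 24 h, 9.75 at 3 h and 10.11 in sham dishes, against 9.89 and 9.47, 9.21 and 9.28, and 9.40 and 9.34 in numbers 1 and 2 of the same groups. Pla2g5, a secreted phospholipase A2, and Plcd4 had their highest dish means there as well, at 8.96 and 10.22. The part of the mix of cells in these values was not tested. With the number as a block, the standard error of the 3 h difference of Gpd1 was 0.07, against 0.49 without it, and its difference of 0.15 still had an adjusted p of 0.36.

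**Figure D4:**
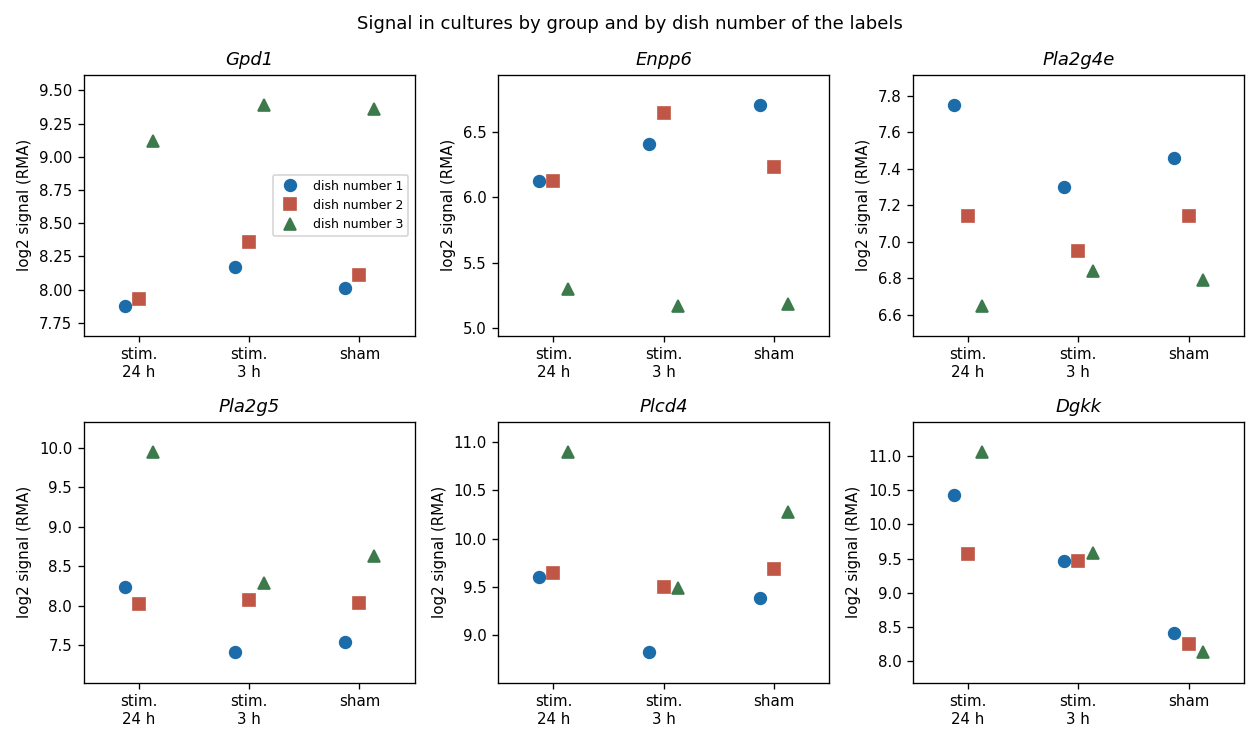
Log2 signal (vertical axis) of Gpd1, Enpp6, Pla2g4e, Pla2g5, Plcd4 and Dgkk in the 9 culture dishes, by group, with 1 marker shape and colour per dish number; the axes do not start at 0. Number 3 is highest for Gpd1 in all 3 groups and lowest for Enpp6 and Pla2g4e, while all 3 sham dishes of Dgkk, at 8.13 to 8.41, lie below the stimulated dishes.

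Sham cultures and control cortex can be compared only with care, since the deposited values of both systems were not summarised together. A pair of cortex arrays shared exactly equal values in 567 to 1531 genes and a pair of culture arrays in 244 to 817, but a cortex and a culture array in at most 1. The systems also differed in RNA kit and age of the tissue, and the median difference of all genes was 0.497 toward culture as deposited, and 0.034 after quantile normalization over all arrays. The differences are therefore given as values without a test. Every culture array was above every cortex array for 36 members and below for 6, with 25 overlapping, and over all genes for 52.0% and 10.7%.

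As deposited, 49 of the 67 members, 73.1%, had a higher mean in sham cultures than in control cortex, against 73.6% of all genes, and after quantile normalization 36, 53.7%, against 52.7%. All 9 head group enzymes were higher as deposited, by 0.49 to 2.08 with a median of 0.933, but after quantile normalization 6 of 9, with a range of -0.36 to 1.2 and a median of 0.093. The 6 members furthest above control cortex were Dgkk at 3.55, Pcyt1b, a cytidyltransferase of phosphatidylcholine synthesis, at 2.08, Pla2g7, which inactivates platelet-activating factor, at 1.94, Plce1, a phospholipase C linked to Ras, at 1.92, Lpcat3, which places arachidonate in phosphatidylcholine, at 1.80, and Plcd4 at 1.79. After quantile normalization these were 3.23, 1.2, 1.05, 1.43, 0.88 and 0.96. The size of the Dgkk difference is uncertain, since its cortex signal was tied on most arrays and whether it lay above background was not tested. Pcyt1b averaged 10.44 ± 0.15 in sham cultures and 8.36 ± 0.19 in control cortex, and Pla2g7 12.09 ± 0.16 and 10.15 ± 0.03 (SD, n = 3 each). Both groups were far apart relative to their spread.

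The 6 furthest below were Pld4 at -2.48, Gpd1 at -1.07, Enpp6 at -1.05, Pla2g4a at -0.87, Plcb4 at -0.76 and Dgka at -0.69. After quantile normalization these were -2.75, -1.89, -1.33, -0.91, -1.64 and -1.33, and Gpd1, Plcb4 and Dgka moved furthest. Pld4, an exonuclease of endolysosomes that microglia express, had 4.82, 4.83 and 4.93 in sham dishes, against 7.33, 7.47 and 7.23 in control pools. The 8 microglial markers averaged 5.36 to 5.53 in sham dishes and 7.55 to 7.66 in control pools, and the 8 oligodendrocyte markers 5.54 to 5.91 and 9.54 to 9.57. Other markers were higher in culture: the 6 of oligodendrocyte precursors averaged 9.15 to 9.9 in sham dishes and 8.01 to 8.14 in control pools, the 5 of immature neurons 9.8 to 10.29 and 8.48 to 8.51, and the 4 of dividing cells 7.57 to 7.85 and 3.96 to 4.13. The 5 of astrocytes averaged 9.34 to 10.11 in sham dishes and 9.04 to 9.11 in control pools. Among these 5, S100b was lower on every culture array, at 6.76 to 7.67 against 8.51 to 8.67 in cortex. The part of these cell types in the members' differences, in either direction, was not tested. Gpd1 and Enpp6 each ranged widely over the sham dishes, from 8.01 to 9.36 and from 5.18 to 6.71.

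**Figure D5:**
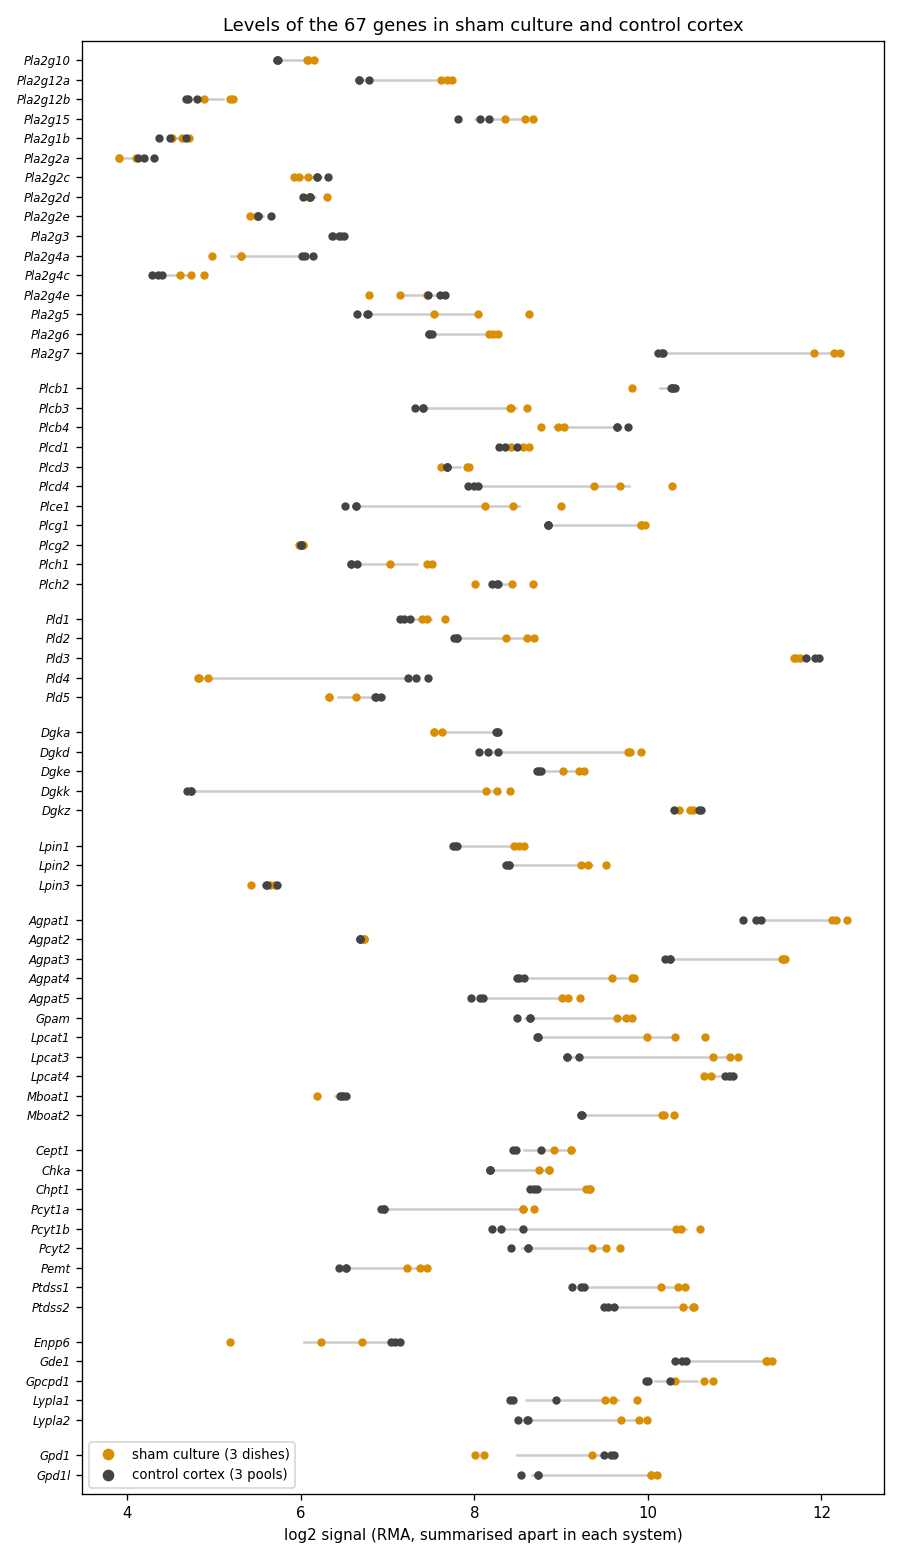
Log2 signal (horizontal axis) of each of the 67 members (rows, grouped by role) in the 3 sham culture dishes and the 3 control cortex pools, 1 point per array, with a grey line joining the group means; the axis does not start at 0. Dgkk, with means of 8.27 in sham culture and 4.71 in control cortex, has the longest line toward culture. Pld4, at 4.86 and 7.34, has the longest toward cortex. The systems were summarised apart, so the lengths of the lines are uncertain.

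The members with the highest probe signal in control cortex were Pld3 (11.82 to 11.97), Agpat1 (11.10 to 11.30), Lpcat4, Dgkz, Gde1 and Plcb1; in sham cultures they were Agpat1 (12.12 to 12.30), Pla2g7 (11.91 to 12.22), Pld3 (11.69 to 11.75), Agpat3, Gde1 and Lpcat3. This is an order of probe signals and not of transcripts. Tied values limited what could be read for many members. Only 23 of the 67 had distinct values on all 9 cortex arrays, and 38 on all 9 culture arrays, so ties enter the spread of the others. Plcg2, the gamma form of immune cells, read 6.00 on 8 of the 9 cortex arrays. The 5 members Agpat2, Dgkk, Plcb3, Plcg1 and Plcg2 had 4 or fewer distinct values over the 9 cortex arrays. The spread of these 5 there is not a measure of variation between mice.

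Genes next to these pathways were read from 6 lists of eicosanoid enzymes (16 measured), the CDP-diacylglycerol, inositol lipid and cardiolipin branch (18), endocannabinoid and other lipid hydrolases (22), sphingomyelin turnover (17), lipid mediator receptors and transporters (21) and lipid regulators (7). After sleep deprivation 2 of the 101 genes were called, both higher, 1.98% against 1.63% of all genes. They were Mfsd2a, the transporter that carries lysophosphatidylcholine with docosahexaenoate across the blood-brain barrier, at 9.42 in sleep-deprived and 8.78 in control pools (0.64 ± 0.06, adjusted p of 0.0038 in limma), and Alox12b, a lipoxygenase, at 7.71 and 7.16 (0.55 ± 0.06, adjusted p of 0.0085). In recovered against sleep-deprived pools 4 of the 101 were called, 3.96% against 2.26% of all genes: Mfsd2a at -0.63 ± 0.06 and Alox12b at -0.51 ± 0.06, and Lta4h, which makes leukotriene B4, and Plbd2, a lysosomal phospholipase B relative, each at 0.21 ± 0.04 (adjusted p of 0.0032, 0.01, 0.049 and 0.043). In recovered against control pools, and in the 3 culture comparisons, limma called none of the 101. An unadjusted p under 0.05 was found for 1 in recovered against control pools (0.99%, against 2.88% of all genes), 13 at 3 h against sham (12.9%, against 12.7%), 8 at 24 h against 3 h (7.92%, against 12.3%) and 5 at 24 h against sham (4.95%, against 5.92%). With the dish number as a block, 2 of the 101 were called at 3 h against sham, 1.98% against 2.42% of all genes. They were Tmem86a, a lysoplasmalogenase relative, at 8.29 in dishes 3 h after stimulation and 8.71 in sham dishes (-0.42 ± 0.06, adjusted p of 0.032), and Sgms1, a sphingomyelin synthase, at 8.46 and 8.95 (-0.49 ± 0.08, adjusted p of 0.033). At 24 h against 3 h the block gave 1 of the 101, 0.99% against 1.01% of all genes: Itpka, an inositol trisphosphate kinase, at 9.05 in dishes at 24 h and 9.55 in dishes at 3 h (-0.49 ± 0.07, adjusted p of 0.037).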

How the data were processed

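RNA of 18 samples was measured on Affymetrix arrays. The deposited values are log2 signals that the authors made with RMA (background correction, quantile normalization and probe set summary), per the submitters' processing notes, which name RMA; neither its version nor its settings were stated. Of 23238 probe sets, 14939 carried 1 gene symbol, 989 several and 7310 none in the platform annotation; 14884 of the singly named matched RefSeq by Entrez ID, with 0 symbols changed. For the 131 genes with several probe sets the one with the highest mean was kept, leaving 14807 genes, with no filter on low signal.

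Groups of 3 arrays were compared with limma 3.58.1 (lmFit and eBayes, two-sided) in R 4.3.3, cortex and culture each in a fit of 9 arrays, the response difference in a fit of 18, with Benjamini-Hochberg adjustment over all genes and a threshold of 0.05. The fits were tested on simulated data. A planned test of sham culture against control cortex is not reported because exactly equal values showed that both systems were summarised apart. Members, lists and tests were chosen with earlier results of these data known.

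Deviations of arrays with the same replicate number correlated at 0.202 to 0.552 in culture (9 pairs) and at -0.102 to 0.101 in cortex (9 pairs), so the numbers were taken to pair the culture dishes, which the labels say came from 3 cultures, and not the cortex pools. Members were named when called, among the 4 smallest p of a comparison, among the 6 largest differences between systems in each direction, or among the 6 highest signals of each system; the other genes were named when called. Enpp6, Gpcpd1, Pla2g4a, Pla2g5, Plcg2, Tmem86a, Sgms1 and Itpka were named in some comparisons after their values were seen. Alternatives were the replicate block, quantile normalization over all arrays, arrays scaled to 1 standard deviation, leaving out the 30% of genes with the lowest mean, eBayes with trend and robust fitting, array weights, the mean of all probe sets, only the 2 groups compared, all 18 arrays in 1 model, and leaving out each replicate. The labels named no array batch. With 3 arrays a group, the number of arrays limits the precision. Plots were drawn with matplotlib 3.10.9.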

Additional observations from a re-analysis of the deposited data

Results flagged for a closer look

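The responses of 2 members differed between the culture and the cortex by the test of the difference itself. For Chka, the change 3 h after stimulation exceeded the change after sleep deprivation by 0.76 ± 0.11 on the log2 scale (adjusted p of 0.0029 in limma), with 3 of 3 stimulated dishes above all sham dishes and 3 of 3 sleep-deprived pools above all control pools. For Plcd1 the difference was 1.16 ± 0.19 (adjusted p of 0.0062), with 3 of 3 stimulated dishes above all sham dishes and 3 of 3 sleep-deprived pools below all control pools. Both differences passed in each of the 7 other settings tried, arrays scaled to 1 standard deviation among them. They also passed in each of 12 refits without 1 array. Apart from the setting with array weights, these fits gave both systems 1 estimate of spread per gene, although culture dishes varied more for both genes. The 3 h culture calls themselves held in only 2 of 6 refits without 1 dish for Chka, and 1 of 6 for Plcd1. The stimulus, the time to sampling and the mix of cells all differ between the systems and cannot be told apart here.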

How the results depend on the processing

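Among single genes named from the tests, no difference changed sign under any alternative tried: 357 values kept their side of the threshold, 68 lost it and 26 gained it. The count of members called after sleep deprivation was 3. It was 1 with the replicate block, 7 with array weights, 1 with only the 2 groups compared and 0 with all 18 arrays in 1 model, and 1 to 3 without 1 pool. Over all 14807 genes 241 were called, and in the same order 140, 811, 94, 31 and 72 to 182. In recovered against sleep-deprived cortex 5 members were called, with the block 2, with array weights 9, with the 2 groups 1, with 18 arrays 0, and 1 to 3 without 1 pool. The all-gene counts there were 334, 190, 774, 182, 42 and 104 to 215. In cortex the replicate numbers did not pair the pools, and with the block the adjusted p was 0.065 for Plcd4 and 0.11 for Gpd1 after sleep deprivation. The count 3 h after stimulation was 2, with scaled arrays 3, with array weights 3, with 18 arrays 5, and 0 to 2 without 1 dish; with the 2 groups it was again 2, but Dgkk had gained the call and Plcd1 lost it. At 24 h against 3 h it was 1, with the block 2, with quantile normalization 2, with scaled arrays 3, with array weights 14, with the 2 groups 0, with 18 arrays 7, and 0 to 1 without 1 dish. At 24 h against sham it was 0, with array weights 5, with 18 arrays 1, and 0 to 1 without 1 dish. For the response difference it was 2, with the block, set in cortex as well, 3, with scaled arrays 3 and with array weights 4. The cause of these shifts was not tested; refits without 1 array hold fewer samples.

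Over all genes, the 241 calls after sleep deprivation were 31 with 18 arrays and 811 with array weights, and 72 without control pool 2; the 334 in recovered against sleep-deprived cortex were 42 and 774. The 215 calls at 3 h were 1170 with 18 arrays and 18 without sham dish 1, and the 49 at 24 h against 3 h were 1 with the 2 groups and 2829 with array weights. At 24 h against sham there was no call, against 958 with array weights and 64 with 18 arrays. Scaling moved the split of calls: 217 higher and 117 lower in recovered against sleep-deprived cortex were 239 and 230 with quantile normalization, 133 and 82 at 3 h were 232 and 37 with scaled arrays, 12 and 37 at 24 h against 3 h were 14 and 109, and 166 and 141 of the response difference were 252 and 66. Among the named members, the replicate block changed no other culture call than those of Plcd1 at 24 h against 3 h and Pla2g4e in the response difference; among the neighbouring genes it added Tmem86a and Sgms1 at 3 h and Itpka at 24 h against 3 h, and 3 genes of the response difference. The 3 arrays of each group limit what can be called, and the 12 members below the array median on all arrays lie where probe signal is weakest.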
